A study of Mus musculus with 23 samples.

Results

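Bone marrow-derived macrophages labelled Selenow knock-out were compared after 8 h of lipopolysaccharide (LPS) and before treatment. The comparison holds the 3 libraries titled knock-out at 8 h, with running numbers 19, 20 and 21, and the 3 titled knock-out at 0 h, with running numbers 13, 14 and 15. These are 6 of the 23 RNA-seq libraries of the series. All genes were taken, and 18083 of the 55401 in the count table had enough counts to be tested. The treated cells received LPS at 100 ng/ml for 8 h, and the untreated cells received none. Both groups are labelled Selenow knock-out, with no other allele given, and both are macrophages grown from mouse bone marrow. Beside them, wild-type libraries at 0 and 8 h and labelled knock-out libraries at 4 and 24 h of LPS are quoted where a value needs them. The labels give no strain, age, sex or removed part of the gene, and they do not say whether libraries of a group came from separate animals or cultures. Every p-value therefore measures the spread between libraries, which may be technical. No untreated 8 h library was used here, so the effects of LPS and of 8 h more in culture cannot be told apart.

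Selenow, which encodes the small selenoprotein W (GRCm38 chromosome 7, 15917208 to 15922402, minus strand), was read in all 6 libraries and went against the label in 2 of them. It stood at 106, 39.4 and 40.8 CPM (counts scaled to library size with TMM factors) in the untreated libraries 13, 14 and 15, which is 88%, 32.6% and 33.7% of the untreated wild-type mean. At 8 h it stood at 260.4, 135 and 125 CPM in libraries 19, 20 and 21, or 82.4%, 42.6% and 39.4% of the wild-type mean of that time. Libraries 13 and 19 were thus close to the wild-type level, as were libraries 16 and 22 at 4 and 24 h, and the cells are called labelled knock-out throughout. Selenow itself rose with LPS (log2 fold change 1.48 ± 0.37, SE; adjusted p 0.00209 in edgeR's quasi-likelihood test), and the untreated and 8 h libraries did not overlap. Library 14 differed from its group by more than the others did, with a chi-square per gene of 82.91 and 149.29 against libraries 13 and 15, which differed from each other by 20.16. In the same way library 20 differed from libraries 19 and 21 by 82.41 and 88.41, against 6.48 between these. Libraries 14 and 20 belong to a set of 8 libraries of both genotypes, found in the data and called the second library set below. At each time the wild-type and labelled knock-out libraries of the set deviated from their group means together across genes. For libraries 14 and 20 the correlation with their wild-type counterparts was 0.78 and 0.77. Between times the deviations were weakly related, at 0.228 for libraries 14 and 20, against 0.27 for libraries 15 and 21. Each of the 6 libraries held between 40953514 and 41604930 counted read pairs and 22114 to 23575 genes with a count, and a count of 0 allows a level of up to 0.0824 CPM, which covers counting error only.

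LPS is a component of the outer membrane of Gram-negative bacteria that macrophages sense through Toll-like receptor 4 with its partners CD14 and MD-2. Signalling through the adaptor MyD88 activates NF-kB and the MAP kinases, which switch on cytokine genes and also the genes of their own inhibitors. Signalling through the adaptor TRIF activates IRF3 and the interferon beta gene, and secreted interferon then induces antiviral genes in turn. Activated macrophages also move their metabolism towards glycolysis, make nitric oxide and itaconate, and leave the cell cycle.

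In labelled knock-out cells 8 h of LPS changed most of the genes measured in these cells. Chemokine, cytokine, interferon-stimulated and NF-kB pathway genes stood highest above the untreated level, and genes of mitosis, DNA replication, cholesterol synthesis and fatty acid synthesis fell furthest below it. With 0.05 as the limit of the adjusted p, 10886 of the 18083 genes (60.2%) passed the test, 5120 of them (28.3%) with more and 5766 (31.9%) with less RNA at 8 h. The libraries of the groups did not overlap for 12127 genes (67.1%). At least 2-fold changes were called for 2997 genes upward and 3352 downward, and at least 16-fold changes for 648 and 227. A further test against a fold of 1.5 called 6444 genes (35.6%). The split between higher and lower calls rests on the scaling. TMM factors ran from 1.2369 to 1.3637 in the untreated libraries and from 0.8855 to 0.9025 at 8 h, with a median log2 fold change of -0.089 over all genes. Scaling by library totals alone, an alternative chosen after seeing the data, moved this median to -0.615, and 2994 genes were then called higher and 9751 lower (23.5% of calls higher, against 47%). Of the genes called with TMM, 812 took the opposite sign. Counts by library totals are therefore given below for many of the lists. Lists without such counts can change as well, as inflammasome and pyroptosis genes did (13 higher, and 11 by library totals). In these bulk data fewer cells of a type cannot be told apart from less RNA per cell.

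**Figure D1:**
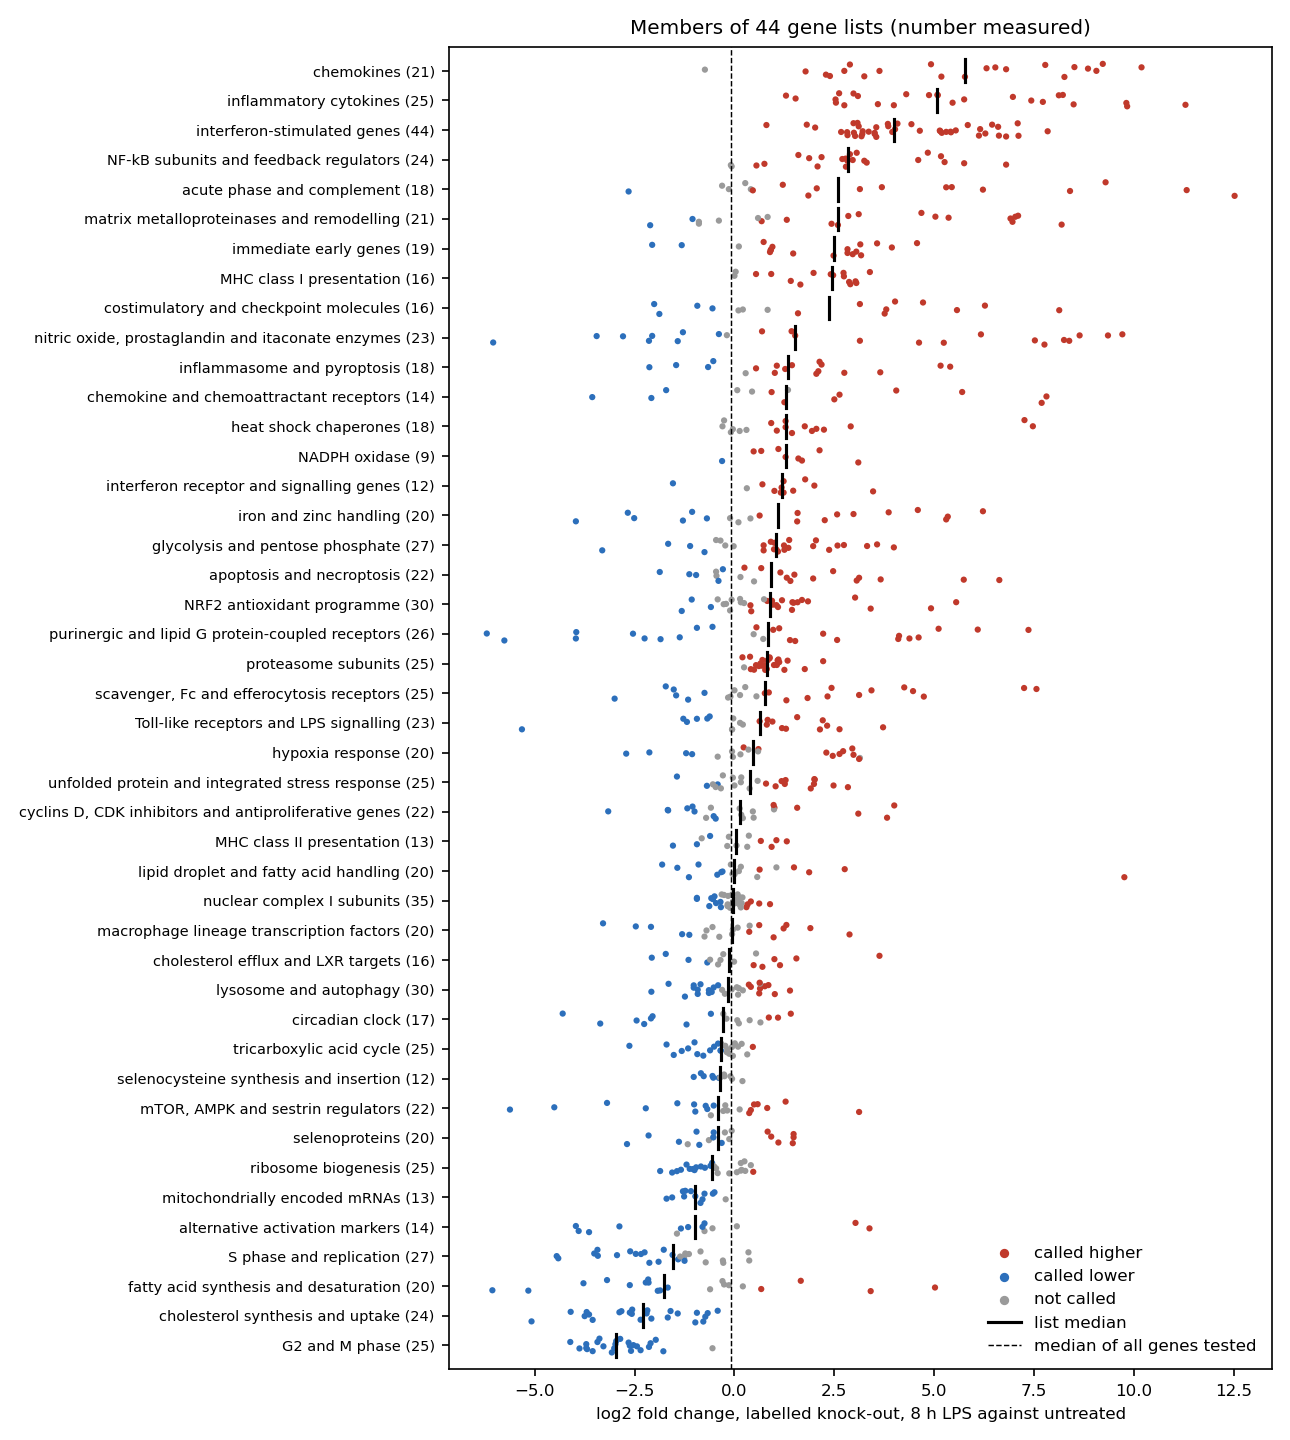
Log2 fold change of each measured member of 44 gene lists between labelled knock-out macrophages after 8 h of LPS and untreated ones, with 1 point per gene, coloured by its call. Short vertical lines are list medians, which run from 5.77 for the chemokines to -2.96 for the G2 and M phase genes, and the dashed line at -0.089 is the median of all 18083 genes tested.

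By the naming rule, with at least 5 CPM in the higher group and no overlap, Saa1 had the largest rise in log2 fold change. The next was Saa3, an acute phase serum amyloid gene (chromosome 7, 46711998 to 46715700, minus strand). It went from 1.66, 1.79 and 5.93 CPM untreated to 8373, 6755 and 8873 CPM at 8 h (log2 fold change 11.32 ± 0.87, SE; adjusted p 3.7e-09), and values in parentheses below are log2 fold changes with their SE unless another quantity is named. Csf3, the gene of granulocyte colony-stimulating factor, had no read in the untreated libraries and 6.82, 6.86 and 8.95 CPM at 8 h, at least 399.5-fold more when 3 counts over the untreated group are taken as the floor. The interleukin-23 receptor subunit gene Il23r also had no untreated read and stood at 5.97, 10.6 and 5.85 CPM, at least 396-fold higher. In all, 136 genes called higher had no read in any untreated library. Tarm1, a receptor that activates myeloid cells, went from 0.191, 0.125 and 0.256 to 374, 406 and 404 CPM, and the NAD-consuming enzyme gene Cd38 from 0.268, 0.0358 and 0.177 to 170.4, 66.9 and 174 CPM. Lipg, endothelial lipase, rose from 0.0765, 0.251 and 0.591 to 227, 373 and 196 CPM. In these genes every treated library lay far above every untreated library, and within the 8 h group the lowest value was in library 20 for Cd38 (9.74) and the highest in library 20 for Lipg (9.76).

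Among the falls, Rasgrp3, an exchange factor for Ras proteins (chromosome 17, 75435896 to 75529054, plus strand), dropped from 119, 81.1 and 109.6 CPM to 0.16, 0.161 and 0.357 CPM (-8.82 ± 0.63, adjusted p 1.61e-09). The organic anion transporter gene Slco2b1 went from 85, 76.8 and 83.7 to 0.426, 0.457 and 0.687 CPM, and St6gal1, which adds sialic acid to glycoproteins, from 178, 132 and 195 to 1.15, 1.08 and 1.15 CPM. The transcription factor gene Tfap4 went from 4.82, 6.23 and 6.99 to 0.107, 0 and 0.137 CPM. Each fell in all 3 treated libraries with no overlap. Gpr34, a lysophosphatidylserine receptor, went from 6, 5.53 and 13 to 0.133, 0.0538 and 0.137 CPM. Hpgd, which inactivates prostaglandins, dropped from 125, 74.9 and 107 to 1.44, 1.56 and 1.65 CPM. Counting ignored strand, so reads in the exon bases that Slco2b1, St6gal1 and Cbfa2t3 each share with an antisense gene cannot be told apart. The same holds for Il1a, Cxcl10, Gbp2, Irf1, Myd88, Tap1, Cd274, Prdx5, Rac1 and Mcm7 below. It also holds for Fosl1, Nox1, Dbp, Slc16a3, Dkc1, Il18bp and Cebpb, and for further genes below that are not listed here. The other rule-named falls were Abcg3 (-6.82), Etl4 (-6.30), Lpin1 (-6.06), Cbfa2t3 (-5.97), Cmah (-5.78) and Tmem154 (-5.76) in log2 fold change.

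**Figure D2:**
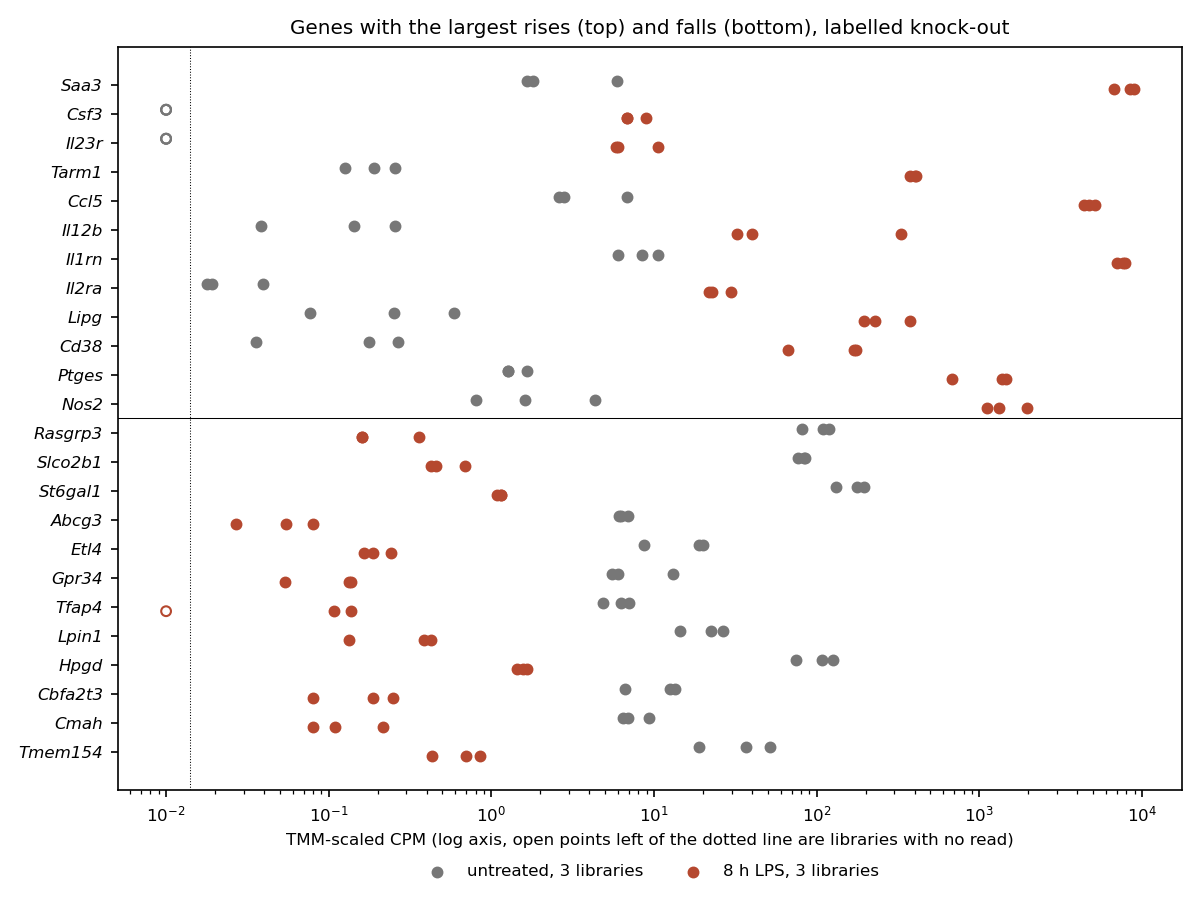
TMM-scaled CPM on a log axis of 12 genes with large rises and the 12 rule-named falls after 8 h of LPS in labelled knock-out macrophages. Each gene has 3 untreated (grey) and 3 treated (red) libraries. Of the rises given by the rule Saa1 and Gpr31a are not drawn, and Ptges and Nos2 are drawn as further large rises. Open points left of the dotted line are libraries with no read, and no gene shown has treated and untreated points that overlap.

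All 25 inflammatory cytokine genes measured were called higher at 8 h (28.3% of all genes were), with a median log2 fold change of 5.08, or 4.87 with the 3 genes that had no untreated read at their lower bound. Il1b, which encodes a pyrogenic cytokine released by inflammasomes, rose from 1.19, 1.9 and 5 to 804, 1196 and 907 CPM (8.49 ± 0.76), and Il1a from 0.478, 0.717 and 1.48 to 173, 418 and 208 CPM (8.22 ± 0.96). The gene of their receptor antagonist, Il1rn, rose further, from 5.97, 8.45 and 10.6 to 7041, 7810.2 and 7646 CPM (9.81 ± 0.65). Il6 rose from 0.0191, 0.305 and 0.473 to 17.4, 102 and 18.5 CPM, and Il12b, the subunit shared by interleukins 12 and 23, from 0.0382, 0.143 and 0.256 to 40.2, 331 and 32.4 CPM. Tnf, the tumour necrosis factor gene, went from 14.9, 32.2 and 16.6 to 277, 719 and 257 CPM (4.30 ± 0.55). Library 20 held the highest 8 h value of Il6, Il12b and Tnf, by more than 2 times over the other 2 libraries, and of 18 of the 25 cytokine genes, while it was the highest for 39.3% of all genes tested. The interferon beta gene Ifnb1 had no untreated read and 0.799, 0.591 and 0.494 CPM at 8 h, at least 33.3-fold more, and its call was lost with limma-voom (adjusted p 0.0591). Groups did not overlap for 23 of the 25.

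Of 21 chemokine genes 20 were called higher and none lower (median 5.77, 18 without overlap), or 17 higher by library totals. Ccl5, a chemokine that draws T cells and monocytes, rose from 2.62, 2.79 and 6.83 to 4396, 5167 and 4738 CPM (10.19 ± 0.65, adjusted p 5.29e-10). The ligands of the receptor CXCR3 rose as well: Cxcl9 went from 0.268, 0.251 and 0.729 to 131, 210.3 and 113 CPM, Cxcl10 from 9.94, 12.7 and 25.6 to 962, 1888 and 964 CPM and Cxcl11 from 0.0382, 0.0717 and 0.276 to 61.1, 111 and 59.2 CPM. Ccl22, which attracts regulatory T cells, went from 0.344, 0.376 and 0.138 to 24.6, 206 and 38.3 CPM. Its library 20 value stood apart from the other treated libraries, as did that of Cxcl10, although no treated library of these genes reached down to the untreated values. Cxcl1, a neutrophil attractant, had the opposite order, with 10.4, 4.03 and 8.16 CPM against 0.191, 0.287 and 0.256 CPM untreated. Ccl6, the exception, stood at 43.7, 28.6 and 50.4 CPM untreated and 29.1, 17.4 and 26.9 CPM at 8 h with overlapping groups (-0.74 ± 0.58, adjusted p 0.28). It was called lower without the second library set (-0.71, adjusted p 2.83e-06) and in a fit of only these groups (-0.71, adjusted p 0.0442).

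Receptors for chemoattractants moved in both directions, with 8 of 14 called higher and 3 lower. The formyl peptide receptors, which detect bacterial peptides, rose most: Fpr1 from 1.32, 1.15 and 1.4 to 310.1, 255 and 303 CPM (7.81 ± 0.58) and Fpr2 from 1.51, 1.18 and 1.56 to 279, 319 and 277 CPM (7.69 ± 0.52). Ccr7, which guides cells to lymph nodes, went from 0.21, 0.143 and 0.118 to 3.33, 15.2 and 6.45 CPM, and Cmklr1, the chemerin receptor, from 34.3, 21.7 and 50 to 223, 168 and 265 CPM. Cxcr4, the receptor that holds cells in bone marrow, fell from 203, 109 and 262 to 19.7, 8.33 and 20.8 CPM (-3.56 ± 0.52). The monocyte receptor gene Ccr2 fell from 173, 115 and 158 to 46.9, 36 and 53.6 CPM (-1.71 ± 0.33), and C5ar2, a receptor of complement C5a, from 11.3, 11.5 and 10.8 to 2.69, 2.23 and 3.02 CPM. For all of these the treated and untreated libraries were apart.

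All 44 interferon-stimulated genes were called higher (median 3.99), with no overlap between the groups for any of them. Gbp5, a guanylate-binding protein that acts against intracellular bacteria and is needed for inflammasome assembly, rose from 3.86, 2.49 and 7.99 to 505, 926 and 553 CPM (7.11 ± 0.73), and Gbp2 from 20.1, 9.78 and 30.2 to 2599, 2859 and 2716 CPM (7.09 ± 0.58). Rsad2, which encodes the antiviral enzyme viperin, went from 49.2, 24.7 and 79.6 to 3744, 7165 and 4198 CPM, and Isg20, an RNA-degrading exonuclease, from 3.67, 1.79 and 4.17 to 283, 359 and 290.5 CPM. Oasl1, a translational inhibitor of Irf7, had the largest fold change of the list (7.84 ± 0.57). Library 20 held the highest 8 h value for 39 of the 44 genes, and no gene of the list had its highest untreated value in library 14. Among receptor and signalling genes of the interferon pathway 10 of 12 rose and 1 fell. Jak2 went from 35.6, 29.8 and 40.4 to 362, 434 and 373 CPM and Irf1 from 52.2, 39 and 66.4 to 199.7, 218 and 210.3 CPM, whereas Ifngr1, the ligand-binding chain of the interferon gamma receptor, fell from 163, 129 and 180 to 64.5, 35.9 and 62.1 CPM (-1.54 ± 0.25).

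The interferon-stimulated response element, searched on both strands as GAAA, 2 free bases and GAAA in the 250 bases before the transcription start (RefSeq, GRCm38.p6), was found in 18 of the 35 list members with a promoter in the table (51.4%). Over all 27025 genes with a promoter there, 3.46% held it. The promoter of Gbp5, the most changed list member with a match, is printed 5′ to 3′ on the strand of the gene (chr3:142496684-142496933, plus strand), with the element, which lies on the other strand from 165 to 156 bases before the start, in capitals.
Gbp5 promoter: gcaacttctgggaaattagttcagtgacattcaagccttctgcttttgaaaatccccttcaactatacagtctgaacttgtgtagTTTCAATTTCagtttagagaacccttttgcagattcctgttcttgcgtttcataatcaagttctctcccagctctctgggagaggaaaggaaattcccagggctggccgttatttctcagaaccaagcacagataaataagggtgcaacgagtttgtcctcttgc

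Of 24 genes of NF-kB subunits and feedback regulators of NF-kB and cytokine signalling, 22 rose (median 2.83). Socs3, which blocks signalling from the interleukin-6 receptor, went from 5.68, 5.79 and 11.9 to 801, 989 and 813 CPM (6.80 ± 0.45, adjusted p 7.48e-10). Traf1, an adaptor of tumour necrosis factor receptors, rose from 5.43, 5.3 and 6.14 to 251, 401 and 258 CPM, and Tnfaip3, the ubiquitin-editing inhibitor A20, from 14.4, 23.5 and 20.7 to 386, 612 and 429.9 CPM. The MAP kinase phosphatase gene Dusp1 rose from 6.88, 6.88 and 6.36 to 232, 303 and 236 CPM, and Socs1, an inhibitor of JAK kinases, from 1.93, 1.99 and 2.54 to 51, 79.8 and 54.6 CPM. All treated libraries were above all untreated ones, and library 20 was the highest of them for 21 of the 24 genes of the list. The deubiquitinase genes Cyld (-0.07 ± 0.13) and Otud1 (-0.09 ± 0.34) were not called, with overlapping values of 11.5, 9.6 and 11.1 and 6.79, 16.5 and 7.06 CPM for Otud1. Without the second library set Otud1 was called lower (-0.67, adjusted p 0.000915), as Cyld was with scaling by library totals (-0.6, adjusted p 8.56e-05).

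The NF-kB motif, searched on both strands as GGGA, 4 free bases and CC, lay within 250 bases before the start of 13 of 21 members of this list with a promoter (61.9%), of 8 of 18 cytokine genes (44.4%) and of 6 of 13 chemokine genes (46.2%), and of 19.67% of all genes. The promoters of Socs3 (chr11:117969367-117969616, minus strand) and Cxcl9 (chr5:92328080-92328329, minus strand), the most changed members of their lists with a match, are shown 5′ to 3′ on the strand of the gene. Capitals mark the match, from 97 to 88 bases before the start in Socs3 and from 130 to 121 bases, on the other strand, in Cxcl9.
Socs3 promoter: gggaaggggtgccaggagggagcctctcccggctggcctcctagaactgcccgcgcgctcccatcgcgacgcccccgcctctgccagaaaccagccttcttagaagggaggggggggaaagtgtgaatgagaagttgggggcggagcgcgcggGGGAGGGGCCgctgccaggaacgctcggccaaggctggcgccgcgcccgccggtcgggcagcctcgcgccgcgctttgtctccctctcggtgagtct
Cxcl9 promoter: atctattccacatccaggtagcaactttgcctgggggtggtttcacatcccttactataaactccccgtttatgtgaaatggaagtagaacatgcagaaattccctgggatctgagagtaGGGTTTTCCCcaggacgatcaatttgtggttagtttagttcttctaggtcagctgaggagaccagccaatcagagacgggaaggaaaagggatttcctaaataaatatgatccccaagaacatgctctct

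Toll-like receptors and genes of LPS signalling were split, with 12 of 23 called higher and 6 lower. Tlr4, the LPS receptor, fell from 89.4, 68.5 and 84.4 to 37, 22.9 and 40.1 CPM (-1.28 ± 0.18), while its co-receptor Cd14 rose from 359, 279.9 and 323 to 945, 988 and 921 CPM (1.57 ± 0.18). Tlr2 and Tlr1, which pair to detect bacterial lipoproteins, rose by 2.14 and 2.32 on the log2 scale, and Tlr3, a receptor of viral RNA, by 3.72. Myd88 went from 72, 61.5 and 70 to 304, 346 and 289 CPM with an SE of 0.12 on a log2 fold change of 2.21. The flagellin receptor gene Tlr5 dropped from 4.91, 4.71 and 4.71 to 0.107, 0.108 and 0.137 CPM (-5.32 ± 0.48). Under scaling by library totals the list split into 8 higher and 9 lower.

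Nos2, the inducible nitric oxide synthase, rose from 0.803, 1.61 and 4.35 CPM to 1109, 1959.6 and 1328 CPM (9.35 ± 1.24), and Acod1, which makes itaconate, from 11.8, 18.5 and 26.2 to 6741, 9009 and 6740.4 CPM (8.64 ± 0.85). Slc7a2, an arginine transporter, went from 2.6, 3.62 and 4.98 to 1039, 1125 and 1249.8 CPM, and Ass1, which takes part in rebuilding arginine from citrulline, from 7.23, 14.4 and 6.42 to 622, 780.1 and 612 CPM, while Asl, the enzyme after it, was not called (-0.19, adjusted p 0.0711). Arg1, arginase, went from 0.134, 0.107 and 0.158 to 60.8, 15.5 and 58.7 CPM, with library 20 well below the other treated libraries yet far above every untreated one (8.38 ± 0.76). Prostaglandin and leukotriene genes divided by branch. The inducible cyclooxygenase gene Ptgs2 (0.803, 2.02 and 3.05 to 255, 718 and 305 CPM) and the terminal prostaglandin E synthase gene Ptges (1.26, 1.27 and 1.65 to 1369, 682 and 1449 CPM) rose. The constitutive cyclooxygenase gene Ptgs1 fell from 46, 44.1 and 44.3 to 7.17, 5.75 and 6.45 CPM, and Hpgds, prostaglandin D synthase, from 218, 175 and 245 to 50.4, 49.4 and 53 CPM. Alox5, the first enzyme of leukotriene synthesis, dropped from 56.7, 60.6 and 36.5 to 2.93, 8.41 and 2.69 CPM (-3.45 ± 0.41), and Lta4h fell by 1.29 on the log2 scale with an SE of 0.11. In total 14 of these 23 genes rose and 8 fell, with groups apart for all 23.

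Markers of alternative activation mostly fell, 8 of 14 called lower and 2 higher (median -0.98), or 11 and 2 by library totals. Cd163, the haemoglobin scavenger receptor, went from 30.7, 21.9 and 26.3 to 2.45, 0.349 and 2.22 CPM (-3.97 ± 0.56), Pparg from 22.9, 15.3 and 21.7 to 1.23, 1.13 and 1.65 CPM and Mrc1, the mannose receptor, from 499.6, 394 and 559 to 74.6, 55.4 and 67.4 CPM (-2.88 ± 0.95, adjusted p 0.0134). The pair that rose were Tgm2, transglutaminase, from 108, 96.4 and 97.4 to 1107, 932 and 1096 CPM, and Il4ra, the interleukin-4 receptor chain, from 112, 96.7 and 135 to 1023, 731 and 1049 CPM. Both share exon bases with other genes on the opposite strand, whose reads cannot be told apart. Library 20 held the lowest 8 h value in 12 of the 14, against 42.6% of all genes.

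Genes of MHC class I presentation rose, 14 of 16 with none lower (median 2.44), or 12 higher and 2 lower by library totals. Tap1, a peptide transporter subunit, went from 69.5, 57.5 and 68.3 to 614, 830.3 and 609 CPM (3.39 ± 0.21), Nlrc5, the activator of class I genes, from 32.2, 22.8 and 32.2 to 198, 312 and 211 CPM, and Psmb10, a subunit of the immunoproteasome, from 63, 54.5 and 63.4 to 482, 509 and 482 CPM. The chaperone genes Calr (0.00 ± 0.18) and Pdia3 (0.03 ± 0.16) were the members not called, with overlapping libraries. Calr was called lower by library totals (-0.54, adjusted p 0.027). Constitutive proteasome subunits rose as a group by less, 24 of 25 with a median of 0.81. Psma6 led with 51.9, 62.8 and 44.1 CPM untreated and 254, 249 and 239 CPM at 8 h, and treated and untreated libraries were apart for all 25. Leaving out libraries 13, 16, 19 and 22 left 19 of them, and scaling by library totals left 10, with 1 subunit lower and a median of 0.28. Of 13 class II genes 4 were called higher and 3 lower, near the shares of all genes (28.3% and 31.9%), or 2 and 6 by library totals. H2-Ab1 rose from 29.5, 19.9 and 29.3 to 63.6, 56.8 and 74.9 CPM (1.31 ± 0.24), Ciita, the activator of class II genes, fell from 7.99, 2.87 and 9.27 to 2.26, 2.8 and 1.84 CPM (-1.54 ± 0.32), and Cd74 rose by 1.05 ± 0.33 (adjusted p 0.00976), a call lost without library 14 (0.79, adjusted p 0.056).

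Costimulatory molecules showed rises in 9 of 16 and falls in 4. Cd40 went from 8.57, 9.58 and 9.26 to 537, 1065 and 515 CPM (6.27 ± 0.53), Cd86, a ligand of CD28, from 9.56, 8.04 and 11.3 to 138, 164 and 166 CPM (4.02 ± 0.27), and Cd274, the checkpoint ligand PD-L1, from 12.7, 6.65 and 17.1 to 523, 607 and 603 CPM (5.57 ± 0.46). Slamf1, a receptor for bacterial porins, rose from 0.0191, 0.0358 and 0.158 to 22.3, 12.2 and 26.5 CPM. Treated and untreated values were far apart in each, and library 20 was the highest treated library for 11 of the 16. Cd83, by contrast, stood at 42.9, 28.7 and 51.8 CPM untreated and at 29.3, 81.3 and 31.7 CPM at 8 h, with only library 20 above the untreated range (0.21 ± 0.40, adjusted p 0.669).

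Scavenger and Fc receptors rose in 13 of 25 cases and fell in 6, or 11 and 9 by library totals. Olr1, a receptor of oxidised lipoprotein, went from 0.115, 0.143 and 0.354 to 37.3, 43.9 and 35.1 CPM (7.56 ± 0.58), Marco, which binds bacteria, from 0.115, 0.125 and 0.256 to 29.3, 25.2 and 21.6 CPM (7.25 ± 1.05), and Fcgr1, the high-affinity immunoglobulin G receptor, from 123, 96.4 and 112 to 2169.5, 1913 and 2232 CPM (4.25 ± 0.20). Clec4e, the receptor Mincle for mycobacterial lipid, reached 1899, 1618 and 1864 CPM from 57, 84.4 and 59.9 CPM. Gas6, a bridging ligand for the uptake of dead cells, went from 1042, 681 and 1225 to 134, 123 and 113 CPM (-3.00 ± 0.55), and Mertk, its receptor, from 56.3, 34.7 and 67.7 to 19.9, 10.8 and 24.4 CPM (-1.52 ± 0.35). Only 3 of the 25 were called lower without library 15 or without library 20.

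Acute phase and complement genes rose in 13 of 18 cases (median 2.6). Cfb, complement factor B, went from 2.87, 2.42 and 3.41 to 1749, 1813 and 1867 CPM (9.29 ± 0.40, adjusted p 6.61e-12), although its reads cannot be told from those of the overlapping Gm20547, and C3 from 39.8, 32.6 and 54.9 to 547, 581 and 511 CPM (3.69 ± 0.47). Ptx3, a pattern recognition molecule, rose from 0.0765, 0.34 and 0.177 to 6.58, 14 and 5.99 CPM. The C1q chain genes C1qa (-0.31 ± 0.29) and C1qc (-0.14 ± 0.25) were not called and overlapped between groups, but were called lower by library totals (-0.84, adjusted p 0.0263, and -0.66, adjusted p 0.0303). Among iron genes, the siderophore-binding protein gene Lcn2 rose from 22.5, 18.7 and 21.1 to 863, 705 and 896 CPM and Hp, haptoglobin, from 2.47, 2.54 and 3.15 to 239.9, 113 and 255 CPM, with library 20 the lowest treated library in both. Cp, the ferroxidase ceruloplasmin, reached 262, 266 and 265 CPM from 5.93, 5.03 and 8.66 CPM. Slc40a1, the iron exporter ferroportin, fell from 129.5, 62 and 146 to 18.9, 8.9 and 25.3 CPM (-2.67 ± 0.54). Of 20 iron and zinc genes 11 rose and 6 fell, or 10 and 8 by library totals.

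Antioxidant genes, many of them targets of the transcription factor NRF2, were called higher in 18 of 30 cases and lower in 3 (median 0.88), or 13 and 9 by library totals. Slc7a11, which imports cystine for glutathione, went from 6.64, 7.63 and 6.89 to 291, 346 and 357 CPM (5.55 ± 0.49), Sod2, the mitochondrial superoxide dismutase, from 54.5, 65 and 63.7 to 1968, 1638 and 1936 CPM (4.92 ± 0.51), and Hmox1, haem oxygenase, from 549.9, 545 and 416 to 4359, 3397 and 4518 CPM (3.02 ± 0.34). Prdx5, a peroxiredoxin, rose from 96.8, 97 and 108 to 1137, 923 and 1148 CPM and Txn1, thioredoxin, from 119, 145 and 89.2 to 418, 427 and 420.4 CPM. Catalase, by contrast, fell, with Cat at 455, 268 and 460.5 CPM untreated and 156, 150.1 and 168 CPM at 8 h (-1.32 ± 0.24), as did the pentose phosphate enzyme gene Tkt (-1.07 ± 0.17). The NADPH oxidase that makes superoxide rose in 8 of its 9 genes, or 6 by library totals. Its catalytic subunit Cybb went from 874, 622 and 1024 to 3723, 3441 and 3873 CPM (2.13 ± 0.30) and the homologue Nox1 from 1.66, 2.17 and 1.54 to 13.2, 21.7 and 11.4 CPM. Rac1 (-0.31 ± 0.08) was called lower, a call lost without libraries 13, 16, 19 and 22 (-0.28, adjusted p 0.0613).

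Selenoproteins, the family to which Selenow belongs, carry selenocysteine at their active sites and include glutathione peroxidases and thioredoxin reductases. Of 20 measured 6 rose, Selenow among them, and 8 fell, against 28.3% and 31.9% of all genes (5 and 13 of the 20 by library totals). Txnrd1, cytosolic thioredoxin reductase, went from 235, 287 and 216 to 671, 645 and 751 CPM (1.48 ± 0.17), Msrb1, which repairs oxidised methionine, from 130.4, 92.8 and 143 to 353, 279 and 376 CPM (1.46 ± 0.22), and Selenot, of the endoplasmic reticulum, from 128, 126 and 119.8 to 251, 317 and 234 CPM. Gpx1, the main cytosolic glutathione peroxidase, fell from 592, 500.1 and 505 to 223, 203 and 185 CPM (-1.39 ± 0.11), and Gpx4, which removes lipid peroxides, from 121, 110.4 and 128 to 69.6, 51.3 and 64.8 CPM (-0.95 ± 0.12). Selenoh, a nucleolar member, dropped from 25.6, 33.9 and 19.1 to 5.27, 8.79 and 3.68 CPM (-2.15 ± 0.42). Groups did not overlap in any of these 6 genes. Gpx3, which is secreted, stood at 90.8, 42.5 and 133 CPM untreated and 68.4, 37.2 and 78.9 CPM at 8 h (-0.53 ± 0.55), overlapping and not called, but called lower with a term for the library set (-0.46, adjusted p 0.022). Of 12 genes listed for selenocysteine synthesis and insertion, a list without Sephs2, none rose and 6 fell. The count that fell was 4 without libraries 13, 16, 19 and 22 and all 12 by library totals. Sephs2, which makes the selenium donor and is itself a selenoprotein, rose from 51.9, 53 and 62.3 to 99.5, 106 and 91.4 CPM (0.83 ± 0.19), but not beyond the threshold by library totals (0.3, adjusted p 0.193).

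Genes of glycolysis were called higher in 19 of 27 cases and lower in 4 (median 1.05), and by library totals in 13 and 7. Slc2a1, the main glucose transporter of activated cells, went from 30, 40 and 28.3 to 404, 316 and 447 CPM (3.57 ± 0.43), Pfkfb3, which makes an activator of phosphofructokinase, from 41.3, 31.4 and 47.2 to 607, 597 and 699 CPM (3.99 ± 0.46), and the hexokinase gene Hk3 from 129, 125 and 123 to 750.2, 721 and 783 CPM. Slc16a3, which exports lactate, rose from 29.4, 40.3 and 28.3 to 379, 144 and 456 CPM. The neuronal-type glucose transporter gene Slc2a3 went the other way, from 18, 21.1 and 17.6 to 1.86, 2.12 and 1.73 CPM (-3.31 ± 0.35). Treated and untreated libraries were apart in all 5 genes, with library 20 the lowest treated library for the 4 that rose. Hypoxia response genes were split, 9 of 20 higher and 4 lower, or 7 and 7 by library totals. Hif1a, the oxygen-regulated transcription factor subunit, rose to 618, 496 and 659.9 CPM (2.46 ± 0.27), its relative Epas1 fell from 5.49, 6 and 5.89 to 0.852, 0.833 and 0.961 CPM (-2.71 ± 0.27), and the prolyl hydroxylase gene Egln3 rose by 2.98 ± 0.78 with library 20 at 3.33 CPM against 12.1 and 16.4 CPM.

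Tricarboxylic acid cycle genes fell in 13 of 25 cases, with 1 higher (median -0.34), or 21 and none by library totals. Idh1 went from 228, 145 and 233 to 36.5, 24.3 and 36.8 CPM (-2.63 ± 0.25), Idh2, its mitochondrial counterpart, from 39.9, 60.6 and 37.4 to 14.2, 22.1 and 11.8 CPM (-1.52 ± 0.36), and Fh1, fumarate hydratase, from 37.9, 42.5 and 35.9 to 13.7, 18.1 and 14.9 CPM (-1.32 ± 0.17). Suclg2, a succinyl-CoA ligase subunit, fell by 1.7 on the log2 scale. Nuclear genes of complex I of the respiratory chain stood near the median of all genes, with 5 of 35 higher, 9 lower and a median of -0.04, but 26 were lower and none higher by library totals. The higher count was 3 without library 15, 2 without libraries 13, 16, 19 and 22 and 9 without the second library set.

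The mRNAs encoded by the mitochondrial genome, by contrast, fell in 12 of 13 cases (median -0.98), and all 13 had groups that did not overlap. mt-Nd1, a complex I subunit (chromosome MT, 2751 to 3707, plus strand), went from 1709.9, 1992 and 1802 to 688, 869.8 and 734 CPM (-1.26 ± 0.15, adjusted p 6.3e-07). mt-Co1, a subunit of cytochrome c oxidase, stood at 5559, 5288 and 5475 and 4702, 4591 and 4699 CPM and was not called (-0.22 ± 0.14, adjusted p 0.164), but was called lower by library totals (-0.75, adjusted p 1.43e-05), as were all 13. mt-Atp8 changed by -1.70 ± 0.29 and mt-Co3 by -1.56 ± 0.35. They share 43 bases and 1 base with mt-Atp6, and read pairs over the shared bases cannot be told apart. Library 15 held the highest mt-Co3 value, 42.3 CPM against 10.5 and 14 CPM in libraries 13 and 14. As a share of all counts these mRNAs made up 1.525%, 1.708% and 1.539% in the untreated libraries and 0.734%, 0.765% and 0.763% at 8 h. Only 9 of the 13 were called without libraries 13, 16, 19 and 22. In wild-type cells 4 of the 13 were called lower and none higher (median -0.07), with a share of 1.458%, 1.294% and 1.204% untreated and 0.777%, 0.736% and 0.854% at 8 h. The difference between the genotypes was not called for any of the 13, and the nearest, mt-Atp6, differed by -1.21 with an adjusted p of 0.085. Less mitochondrial RNA per cell cannot be told apart from more of the other RNA in such shares.

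**Figure D3:**
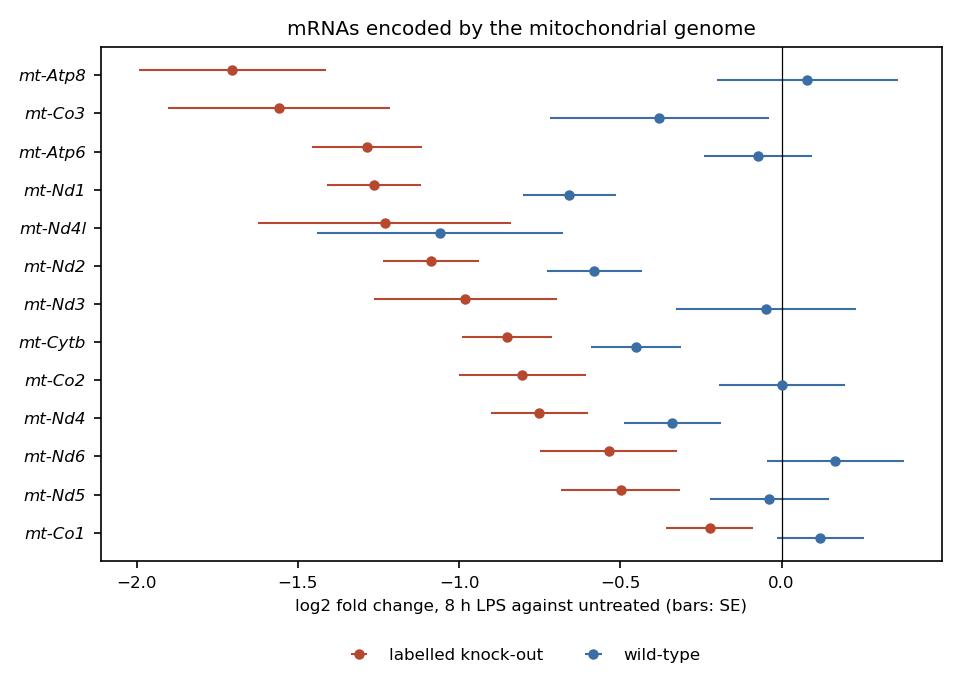
Log2 fold change of the 13 mRNAs encoded by the mitochondrial genome after 8 h of LPS against untreated cells, with standard errors from the fit, in labelled knock-out (red) and wild-type (blue) macrophages. The 13 points of labelled knock-out cells lie below 0 and to the left of the wild-type points, and no difference between the genotypes passed the test.

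All 24 genes of cholesterol synthesis and uptake fell (31.9% of all genes did), with a median of -2.28 and no overlap between groups. Stard4, which carries cholesterol between membranes, went from 48.8, 67.8 and 41.8 to 1.81, 1.1 and 1.76 CPM (-5.08 ± 0.33, adjusted p 6.8e-10), Dhcr7, which completes the synthesis, from 38.4, 56.2 and 32 to 2.32, 3.06 and 1.98 CPM (-4.10 ± 0.38), and Cyp51 from 71.6, 116 and 57.7 to 7.59, 5.81 and 6.32 CPM (-3.64 ± 0.28). Sqle, squalene epoxidase, a rate-limiting step, fell from 51.1, 92.2 and 36 to 5.01, 3.44 and 5.3 CPM (-3.70 ± 0.37). Library 14 was the highest untreated library for 22 of the 24 genes, against 40.1% of all genes. All 24 were also lower by library totals, and 23 without libraries 13, 16, 19 and 22. Of 16 genes that export or store sterols 6 were called higher and 4 lower, against 28.3% and 31.9% of all genes, or 4 and 7 by library totals. Nr1h3, the sterol sensor LXR alpha, rose from 3.94, 2.47 and 3.94 to 51.2, 26.2 and 50.3 CPM (3.63 ± 0.30) and Abca1, the cholesterol exporter, from 279, 215 and 375 to 897, 659 and 989.6 CPM (1.55 ± 0.24). The cholesterol ester hydrolase genes Nceh1 (-2.07 ± 0.26) and Lipa (-1.72 ± 0.14) fell.

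Fatty acid synthesis and desaturation genes were called lower in 11 of 20 cases and higher in 4 (median -1.76), or 15 and 3 by library totals. Fasn, fatty acid synthase, went from 155, 297 and 112 to 24.6, 14.1 and 23.1 CPM (-3.19 ± 0.40), Elovl6, an elongase, from 9.52, 18.8 and 6.6 to 0.506, 0.269 and 0.192 CPM (-5.16 ± 0.64), and the activating enzyme gene Acsl3 from 22.1, 35.6 and 18.9 to 1.39, 1.88 and 2.31 CPM. Those that rose included Dgat2, the last step of triglyceride synthesis, from 1.17, 1.27 and 1.04 to 37.5, 33.1 and 42.8 CPM (5.02 ± 0.57), and Acsl1 from 45.8, 48.1 and 51.3 to 586, 427 and 526 CPM (3.41 ± 0.48). Lipid droplet genes Plin2 (257, 209.6 and 239.6 to 886, 730 and 957 CPM) and Hilpda (2.35, 2.51 and 1.87 to 17.8, 10.2 and 17.6 CPM) rose as well, within a list that split into 5 higher and 7 lower of 20, or 4 and 12 by library totals. The main counts of that list were near the shares of all genes (28.3% and 31.9%). Its lower count was 4 without library 21 and 3 without libraries 13, 16, 19 and 22. No treated library of these genes fell within the untreated range.

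Of 25 genes for G2 and M phase, 24 fell, with a median of -2.96, the lowest of the 44 lists. Kif11, the kinesin that separates spindle poles (chromosome 19, 37376403 to 37421859, plus strand), went from 58.1, 111 and 37.2 to 3.49, 5.27 and 3.16 CPM (-4.11 ± 0.44, adjusted p 2.51e-07), Aurkb, a mitotic kinase, from 37.8, 69.4 and 22.3 to 3.3, 4.19 and 2.53 CPM (-3.69 ± 0.50), and Cenpf, a kinetochore protein, from 49.4, 84.3 and 38.6 to 4.95, 5.03 and 3.19 CPM (-3.71 ± 0.41). Tpx2, a spindle assembly factor, stood at 68.9, 124 and 42.5 CPM untreated and 43.7, 82 and 35.8 CPM at 8 h and was not called (-0.55 ± 0.40, adjusted p 0.242), but passed the test with a term for the library set (-0.53, adjusted p 0.0381). For all 25 genes library 14 was the highest untreated library. S phase genes fell in 16 of 27 cases (median -1.55), with Rrm2, a ribonucleotide reductase subunit, at 22.3, 74.2 and 9.27 CPM untreated and 1.68, 2.45 and 0.824 CPM at 8 h (-4.41 ± 0.88) and the replicative helicase gene Mcm7 at 42, 116 and 25.5 and 5.57, 6.99 and 4.5 CPM (-3.43 ± 0.77). Groups did not overlap for only 10 of the 27 S phase genes, against 67.1% of all genes. Library 14 was again the highest untreated library for all 27, and only 8 were called lower without it and 12 without libraries 13, 16, 19 and 22. By library totals 25 of 25 G2 and M phase genes and 25 of 27 S phase genes were lower.

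The cell cycle homology region, searched as TTTGAA on both strands, lay within 250 bases before the start of 8 of 20 G2 and M phase genes with a promoter (40%), against 18.26% of all genes, and the motif CCAAT in 18 of 20 (90%), against 37.49%. The promoter of Kif11 (chr19:37376132-37376381, plus strand) holds both on the other strand, in capitals below: CCAAT from 45 to 41 and TTTGAA from 19 to 14 bases before the start.
Kif11 promoter: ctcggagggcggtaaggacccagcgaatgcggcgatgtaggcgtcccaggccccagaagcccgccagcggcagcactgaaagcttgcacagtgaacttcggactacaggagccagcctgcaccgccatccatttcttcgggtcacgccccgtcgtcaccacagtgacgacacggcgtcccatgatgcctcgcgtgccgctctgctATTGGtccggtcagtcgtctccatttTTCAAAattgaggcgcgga

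Of 22 genes of D-type cyclins, cyclin-dependent kinase inhibitors and antiproliferative factors 6 were called higher and 8 lower, near the shares of all genes (28.3% and 31.9%). These counts were 5 and 9 by library totals, and 10 were higher without the second library set. Cdkn1a, the kinase inhibitor p21, rose from 52.6, 79.2 and 49.6 to 485, 525 and 544 CPM (3.10 ± 0.35) and Mxd1, an antagonist of MYC, from 16.8, 11.7 and 22.3 to 213, 257 and 246 CPM (3.82 ± 0.53), whereas Cdkn2c fell from 46.4, 76.4 and 31 to 5.3, 6.64 and 5.27 CPM (-3.16 ± 0.34). Ccnd2, a D-type cyclin, rose from 11.9, 37.1 and 6.24 to 210.1, 466 and 211 CPM (4.00 ± 0.61) with library 20 the highest treated and library 14 the highest untreated value. Ribosome biogenesis genes were called lower in 13 of 25 cases and higher in 1 (17 and none by library totals), with Dkc1, a pseudouridine synthase, at 11.4, 22.9 and 10.3 CPM untreated and 4.93, 3.33 and 4.01 CPM at 8 h (-1.86 ± 0.38). That count was 8 lower without library 14, the highest untreated library for 24 of the 25, and 8 were called higher without the second library set.

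Heat shock chaperones rose in 12 of 18 cases with none lower (median 1.28), or 11 and 5 lower by library totals. Hspa1a went from 0.574, 0.305 and 0.315 to 59.3, 87.2 and 65.5 CPM (7.47 ± 0.28) and Hspa1b from 0.497, 0.269 and 0.433 to 50.9, 74.7 and 58.2 CPM (7.26 ± 0.29). The pair are near-identical copies of the inducible Hsp70 gene, so the split of reads between them is uncertain. Hsph1, a co-chaperone of Hsp70, rose from 13.8, 21.6 and 13.3 to 123, 106 and 137 CPM, and Hspa8, the constitutive form, from 1065, 1000.4 and 1169 to 4021, 2669.9 and 4272 CPM. All treated libraries were above all untreated ones in these genes. Genes of the unfolded protein and integrated stress responses were called higher in 11 of 25 cases and lower in 4, or 9 and 9 by library totals. Ddit3, the stress transcription factor CHOP, rose from 8.91, 7.65 and 10.6 to 33.2, 41.3 and 34.2 CPM, though its reads overlap those of other genes at the locus, and Chac1, which degrades glutathione, from 1.09, 2.56 and 0.709 to 7.88, 15 and 8.49 CPM (2.84 ± 0.48). Eif2ak3, the sensor kinase PERK, fell from 32.3, 30.9 and 37.3 to 12, 13.1 and 11.9 CPM (-1.44 ± 0.15). Library 20 was the highest treated library for 24 of these 25 genes.

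Immediate early genes rose in 16 of 19 cases (median 2.48), or 13 by library totals. Fosl1 went from 0.402, 0.734 and 0.295 to 10.7, 9.57 and 14.2 CPM (4.57 ± 0.47), Egr1 from 0.708, 0.985 and 1.12 to 8.9, 16 and 8.68 CPM (3.57 ± 0.48) and Fos from 4.46, 8.38 and 4.27 to 62.4, 35.6 and 54.5 CPM (3.15 ± 0.34), with no overlap. Klf2, a factor that restrains inflammatory genes, fell from 19.9, 12.3 and 18.7 to 4.18, 4.81 and 3.19 CPM (-2.06 ± 0.25). Jun stood at 126, 115 and 148 CPM untreated and 160, 74.1 and 187 CPM at 8 h (0.11 ± 0.28), where library 20 was below and libraries 19 and 21 above the untreated range, and it was called higher without the second library set (0.37, adjusted p 0.00173).

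Of 20 transcription factor genes of the macrophage lineage 7 were called higher and 5 lower, near the shares of all genes (28.3% and 31.9%). By library totals these counts were 5 and 11. Cebpb rose from 115, 102 and 117 to 817, 815 and 813 CPM (2.88 ± 0.28) and Spi1, the lineage factor PU.1, from 376, 333 and 391 to 932, 866 and 921 CPM (1.30 ± 0.12). Mef2c fell from 113, 119 and 126 to 12.8, 10.1 and 13.9 CPM (-3.29 ± 0.28) and Irf4, a factor of alternative activation, from 4.25, 2.22 and 4.17 to 0.479, 0.887 and 0.549 CPM (-2.47 ± 0.43). Among 17 clock genes 8 fell and 3 rose, or 12 and 2 by library totals. Tef, an output factor of the clock, went from 74.7, 46.5 and 88.3 to 16.6, 16.5 and 17.4 CPM (-2.05 ± 0.26), Dbp from 16.3, 8.38 and 25.5 to 3.6, 3.36 and 3.49 CPM (-2.26 ± 0.42) and Per3 from 10.6, 6.72 and 12.7 to 0.852, 0.995 and 1.07 CPM (-3.36 ± 0.34), whereas Per2 rose from 3.1, 2.83 and 3.84 to 8.9, 7.69 and 9.45 CPM (1.41 ± 0.29). The labels do not give the hour of collection.

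Regulators of the kinase mTOR, which couples growth to nutrients, fell in 10 of 22 cases and rose in 7, against 31.9% and 28.3% of all genes. By library totals these counts were 14 and 2. Deptor, an mTOR inhibitor, fell from 32.3, 18.3 and 36.3 to 0.693, 0.591 and 0.467 CPM (-5.62 ± 0.46), and Sesn1 from 117, 75 and 124 to 5.43, 3.47 and 4.92 CPM (-4.51 ± 0.34), while its relative Sesn2, a target of the stress factor ATF4, rose from 24.9, 25.4 and 23.9 to 51.2, 69.3 and 59.7 CPM (1.28 ± 0.16). Lysosome and autophagy genes were called lower in 13 of 30 cases and higher in 9, against 31.9% and 28.3% of all genes, or 19 and 3 by library totals. Ulk2, a kinase that starts autophagy, fell from 54.4, 46.4 and 54.8 to 16.6, 16.3 and 16.5 CPM (-1.65 ± 0.12), and Gabarapl1, of the autophagosome membrane, from 95.1, 59.1 and 112 to 39.1, 30.6 and 42.7 CPM (-1.24 ± 0.26).

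Genes of inflammasomes and pyroptosis rose in 13 of 18 cases and fell in 4 (median 1.35). Mefv, the gene of the inflammasome sensor pyrin, went from 1.85, 1.72 and 2.62 to 94.9, 69.9 and 97.3 CPM (5.40 ± 0.26), and Casp4, the protease that binds intracellular LPS, from 12.1, 8.78 and 15.5 to 143, 162 and 152 CPM (3.65 ± 0.63). Casp1 rose from 42.2, 37.9 and 40.1 to 263, 295 and 253 CPM (2.75 ± 0.26). The antagonist gene Il18bp rose too, from 5.68, 3.39 and 6.26 to 169, 198 and 179 CPM with an SE of 0.20 on a log2 fold change of 5.16, and the pore gene Gsdme fell from 15.4, 15 and 15 to 3.52, 3.41 and 3.43 CPM (-2.13 ± 0.21). Among 22 apoptosis and necroptosis genes 13 rose and 5 fell, or 11 and 8 by library totals. The count that fell was 3 without library 20 and also without libraries 13, 16, 19 and 22. Mlkl, the executor of necroptosis, went from 15.9, 17.2 and 14.4 to 184, 218 and 199 CPM (3.66 ± 0.27), Cflar, an inhibitor of caspase activation, from 56.7, 52.9 and 61.5 to 412, 593 and 422 CPM (3.06 ± 0.27), and the antiapoptotic gene Bcl2 fell from 17.3, 26.8 and 11.2 to 4.42, 5.67 and 5.05 CPM (-1.87 ± 0.44). Groups were apart for each gene named here.

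Matrix remodelling genes were called higher in 14 of 21 cases and lower in 2 (median 2.59), and 4 were lower by library totals, with a term for the library set or without the second library set. Mmp14, a membrane-bound matrix protease, rose from 7.17, 17.4 and 14.7 to 1705, 1871 and 1804 CPM (7.10 ± 0.52), Mmp13, a collagenase, from 7.88, 6.84 and 9.67 to 1086, 701 and 1259 CPM (6.96 ± 0.43), and Timp1, an inhibitor of such proteases, from 0.287, 1.47 and 0.788 to 303, 86.5 and 361 CPM (8.19 ± 1.08). Timp2, another inhibitor, fell from 293, 162 and 357 to 74.9, 39.9 and 72.7 CPM (-2.11 ± 0.53) and Mmp9, a gelatinase, from 12, 8.81 and 12.6 to 5.94, 5.19 and 5 CPM (-1.05 ± 0.34, adjusted p 0.0114). Among 26 purinergic and lipid receptors 14 rose and 10 fell, or 13 and 10 by library totals. The adenosine receptor genes Adora2a (0.268, 0.179 and 0.414 to 37.7, 65.7 and 38.6 CPM) and Adora2b (1.87, 2.79 and 1.44 to 77.3, 58.3 and 76.1 CPM), which dampen macrophage activation, rose, as did the receptor gene Gpr84 for medium-chain fatty acids (6.73, 30 and 8.23 to 992, 1143 and 931 CPM, with reads of the overlapping Gm49482 not told apart). The lysophosphatidic acid receptor gene Lpar5 fell from 24.4, 17.8 and 25.4 to 1.84, 0.86 and 1.65 CPM (-3.96 ± 0.35) and the ADP receptor gene P2ry12 from 39.5, 39.8 and 34.5 to 6.37, 11.3 and 6.26 CPM (-2.25 ± 0.24). Library 20 gave the lowest treated value of Timp1 and the highest of Adora2a and P2ry12, and no treated library reached the untreated range in any of these genes.

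The 8 h level was then set against 4 h in labelled knock-out cells, with 3 libraries at each time. Of 18083 genes 8537 (47.2%) differed, 4410 (24.4%) higher and 4127 (22.8%) lower at 8 h. This comparison shares the 8 h libraries with the comparison against untreated cells, so the following are values side by side. Of the 5120 genes higher at 8 h than untreated, 1001 were lower at 8 h than at 4 h and 1764 higher. Of the 5766 lower than untreated, 1019 were higher at 8 h than at 4 h and 1923 lower still. Of 25 cytokine genes 16 stood below their 4 h level and 1 above it, as did 18 and 1 of the 24 NF-kB subunit and feedback genes. Heat shock chaperones were higher at 8 h in 11 of 18 cases, antioxidant genes in 12 of 30 and glycolysis genes in 13 of 27, with 2, 2 and 6 lower. Genes of cholesterol synthesis were lower at 8 h in 21 of 24 cases and mitochondrial mRNAs in 11 of 13. Interferon-stimulated genes divided into 11 higher and 17 lower.

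Several of the largest rises from 4 to 8 h were in genes with a lower level at 4 h than in untreated cells. Fam83f went from 12.6, 9.74 and 15.6 CPM untreated to 0.124, 0.189 and 0.277 CPM at 4 h and to 9.24, 9.65 and 8.38 CPM at 8 h (8 h against 4 h 5.51 ± 0.31, adjusted p 2.74e-10), where it was not called against untreated cells (-0.48, adjusted p 0.0656). It was called lower than untreated with upper-quartile scaling (-0.56), by library totals (-0.99), without the second library set (-0.64) and without library 14 (-0.63). Mnt, an antagonist of MYC, went from 63.8, 49.5 and 73.3 to 0.679, 0.514 and 0.955 and then 31.5, 30.6 and 31.2 CPM. Osgin1, an oxidative stress gene, went from 41.9, 29.6 and 46 to 2.04, 1.79 and 2.19 and then 62.1, 37.8 and 66.2 CPM. The cannabinoid receptor gene Cnr2 stood at 42.8, 33.4 and 43, 0.309, 0.514 and 0.185 and 8.42, 4.68 and 7.36 CPM, still below the untreated range at 8 h. In all 4 genes the 4 h libraries lay below every library of the other times. The opposite course was taken by Mycl, a MYC family gene, at 0.382, 0.502 and 0.354 CPM untreated, 33.1, 45.3 and 22.8 CPM at 4 h and 0.453, 0.806 and 0.549 CPM at 8 h, and by the transcriptional corepressor gene Bcor at 20.7, 20.3 and 25.5, 181, 119 and 216 and 6.42, 10.7 and 5.49 CPM, below the untreated level by 8 h. Ifnb1 stood at 8.55, 21.2 and 4.81 CPM at 4 h and 0.799, 0.591 and 0.494 CPM at 8 h, with every 4 h library above every 8 h library (-4.19 ± 0.82, adjusted p 0.000497).

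Other genes were late. Arg1 had 0.587, 0.379 and 0.832 CPM at 4 h, above the untreated libraries but below 1 CPM, against 60.8, 15.5 and 58.7 CPM at 8 h and 149 and 135 CPM at 24 h. Hmox1 was below its untreated level at 4 h, with 348, 351 and 323 CPM, and was highest at 8 h. Spic, a factor of haem-handling macrophages, went from 0.727, 0.394 and 0.492 and 0.34, 0.271 and 0.431 CPM to 10.8, 9.27 and 10 CPM, and the myosin phosphatase subunit gene Ppp1r12b from 5.14, 6.31 and 5.61 and 5.13, 8.28 and 4.22 CPM to 169, 105 and 144 CPM. Cyp51 of the cholesterol pathway had 122, 93.3 and 136 CPM at 4 h, overlapping the untreated values, before its fall to 7.59, 5.81 and 6.32 CPM. Rsad2 stood at 20801, 13963 and 20805 CPM at 4 h and 3744, 7165 and 4198 CPM at 8 h (-1.88 ± 0.57, adjusted p 0.0109), a call lost without libraries 13, 16, 19 and 22 (-1.61, adjusted p 0.114). Those 4 libraries left out, 2719 genes in place of 4127 were called below their 4 h level.

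**Figure D4:**
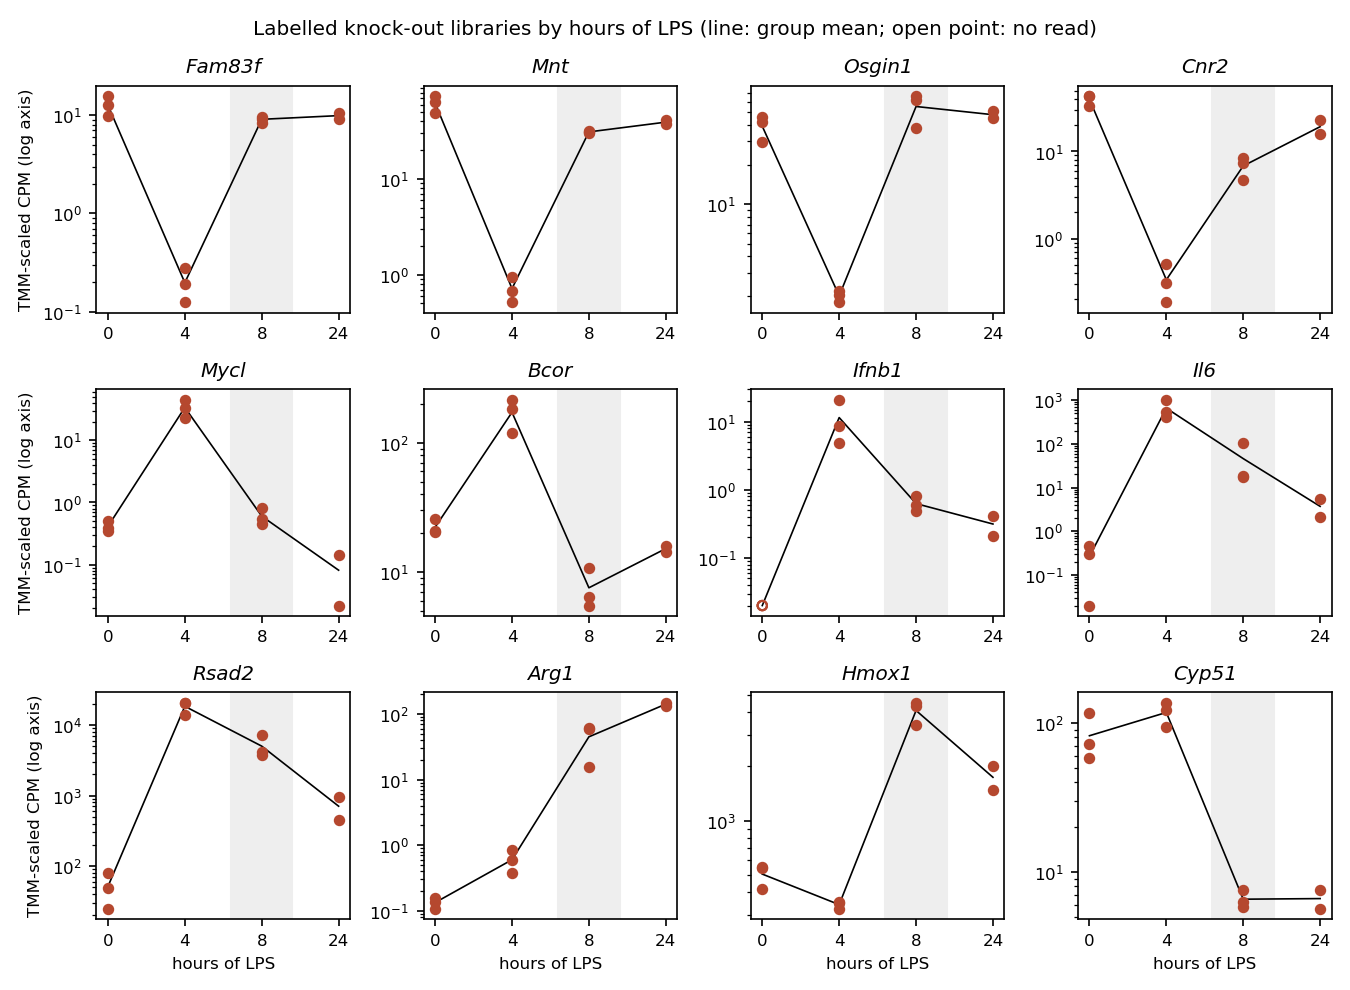
TMM-scaled CPM of 12 genes in labelled knock-out macrophages, 1 point per library, on log axes, at 0, 4, 8 and 24 h of LPS at 100 ng/ml (3 libraries a time, 2 at 24 h), with times drawn at equal distance and a line through the group means. Fam83f, Mnt, Osgin1 and Cnr2 dip at 4 h, Mycl, Bcor, Ifnb1, Il6 and Rsad2 are highest at 4 h, and Arg1, Hmox1 and Cyp51 change between 4 and 8 h, the 8 h group being shaded.

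The 8 h response was last compared with that of wild-type cells, in which 11824 genes (65.4%) were called between 8 h and untreated libraries, 30.3% of all genes higher and 35.1% lower. The difference between the responses, tested as an interaction of genotype and LPS, was called for 8 genes (0.0442%), 1 (0.00553%) with a more positive and 7 (0.0387%) with a more negative response in labelled knock-out cells. Against a fold of 1.5 a single gene (0.00553%) was called, Asb4, which was below 1 CPM in every library compared. At an unadjusted p under 0.05 there were 2045 genes, and DESeq2 called 196 at an adjusted p under 0.05. Fes, a myeloid tyrosine kinase, fell in wild-type cells from 184, 187 and 137 to 68.5, 66.2 and 69.1 CPM, and in labelled knock-out cells stood at 223, 195 and 234 and 181, 189 and 169 CPM (difference of log2 fold changes 1.05 ± 0.16, adjusted p 0.0128). Nlrc4, an inflammasome sensor, rose from 13.1, 13 and 8.32 to 98.5, 93.3 and 115 CPM in wild-type cells and from 18.9, 14 and 20.4 to 37.9, 27.1 and 41.9 CPM in labelled knock-out cells (-2.15 ± 0.37, adjusted p 0.0402). The transporter gene Abca5 fell from 16.7, 16.2 and 13.5 to 4.84, 4.7 and 3.97 CPM and from 7.15, 3.58 and 8.96 to 0.453, 0.296 and 0.22 CPM (-2.55 ± 0.37, adjusted p 0.0128). In Nlrc4 the 8 h libraries of the genotypes were apart, and in Abca5 the labelled knock-out libraries were below the wild-type ones both before and after LPS.

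The antiproliferative gene Tob1 stood at 12, 12.6 and 9.69 and 13.2, 11.6 and 10.6 CPM in wild-type cells and fell from 13.9, 10.5 and 11.1 to 4.53, 5.11 and 6.01 CPM in labelled knock-out cells (-1.23 ± 0.21, adjusted p 0.0402). Dusp10, a phosphatase of stress kinases, rose from 2.3, 2.31 and 2.96 to 21.1, 15.1 and 15.3 CPM and from 2.08, 2.47 and 2.38 to 5.3, 5.59 and 5.58 CPM (-1.52 ± 0.26, adjusted p 0.0402). Nabp1, a single-stranded DNA-binding protein gene, rose from 6.65, 7.05 and 7.85 to 72, 55.2 and 51.5 CPM and from 8.41, 8.35 and 8.47 to 27.2, 31.5 and 33.8 CPM (-1.18 ± 0.18, adjusted p 0.0128). The untreated libraries of the genotypes overlapped in Tob1 and Dusp10 and lay close in Nabp1, and at 8 h every labelled knock-out library was below every wild-type library. Ppp1r10, a phosphatase-targeting subunit gene, went from 52.3, 55.6 and 53 to 97.9, 84 and 96.2 CPM and stood at 50.8, 49.6 and 55.9 and 52.8, 58 and 57.2 CPM (-0.68 ± 0.12, adjusted p 0.0439). Asb4 was below 1 CPM in every one of these 12 libraries (-6.66 ± 0.95, adjusted p 0.0128). None of the 8 was called without libraries 13, 16, 19 and 22, although their differences there were of like size (1.06 for Fes, -2.8 for Abca5, -2.15 for Nlrc4, -1.56 for Dusp10, -1 for Tob1, -1.09 for Nabp1, -0.66 for Ppp1r10 and -6.27 for Asb4). None was called either without wild-type library 1, 2 or 7 or labelled knock-out library 20, while a fit without the second library set called 1667 genes, the 8 among them. Of the members of the 44 lists only Nlrc4 and Tob1 were called.

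**Figure D5:**
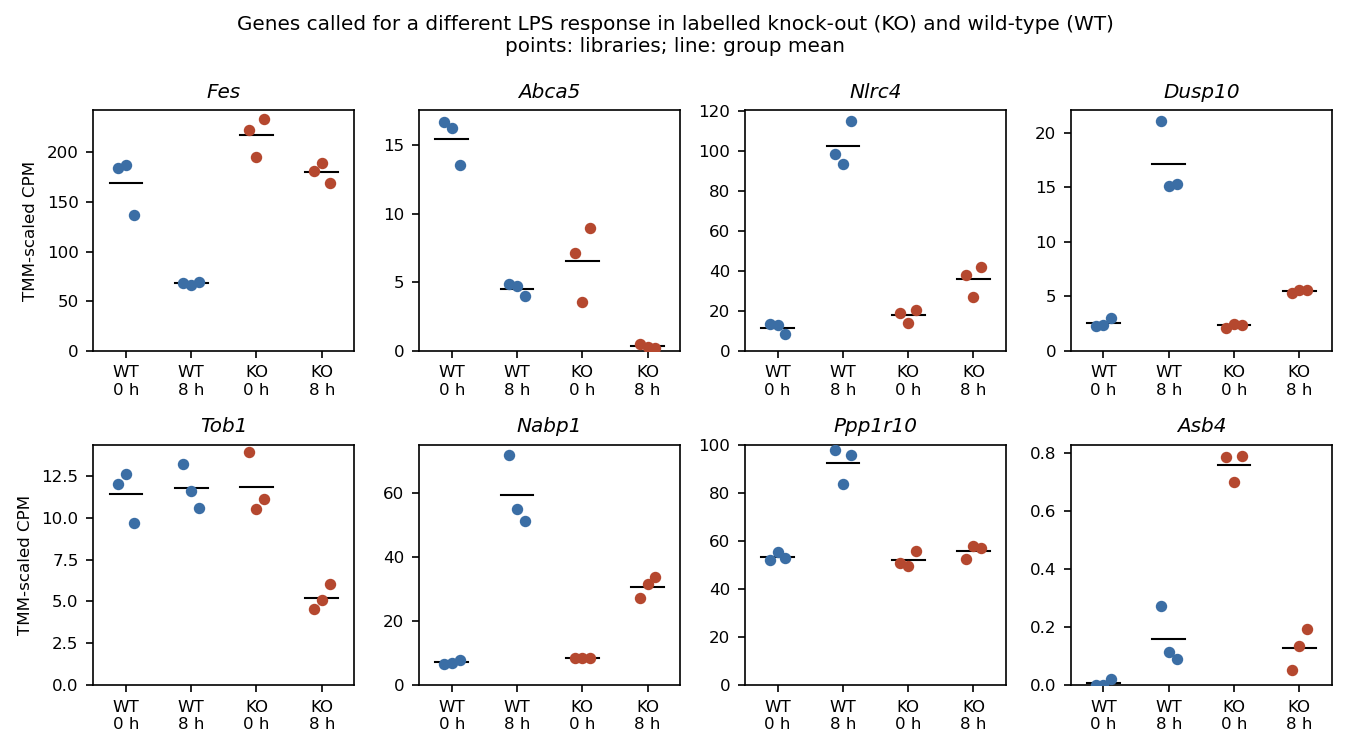
TMM-scaled CPM by library, with a line at the group mean, of the 8 genes whose response to 8 h of LPS differed between labelled knock-out (KO, red) and wild-type (WT, blue) macrophages in edgeR's quasi-likelihood test, with axes starting at 0. At 8 h the labelled knock-out libraries lie above the wild-type libraries for Fes and below them for Abca5, Nlrc4, Dusp10, Tob1, Nabp1 and Ppp1r10.

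The labelled cell type was checked against marker genes. Summed over 12 macrophage markers the untreated libraries held 22495, 15929 and 23229 CPM and the treated libraries 21256, 16220 and 20345 CPM, so that the groups overlapped and libraries 14 and 20 were the lowest of each. Of these 12 markers 5 were called higher, 2 lower (Mrc1 and Mertk) and 5 not called, against 28.3% of all genes higher and 31.9% lower. Csf1r, the receptor of the macrophage growth factor, stood at 2954, 2017 and 3248 and 2493, 1832 and 2389.6 CPM, and Adgre1, the marker F4/80, rose from 642, 483 and 648 to 1286, 1078 and 1151 CPM (0.99 ± 0.19). B cell markers summed to 181, 147 and 176 CPM untreated and to 7.75, 10.3 and 5.27 CPM at 8 h, nearly all of it Ighm, the immunoglobulin mu chain, at 177, 145 and 173 and 5.38, 8.31 and 3.87 CPM. The sum over 15 markers of neutrophils and their precursors went from 237, 210 and 235 to 121, 79.1 and 111 CPM, with Retnlg at 7.61, 3.4 and 6.3 and 0.24, 0.242 and 0.275 CPM. Dendritic cell markers went from 115, 82.4 and 104 to 793, 697 and 832 CPM, of which Bst2, also an interferon-stimulated gene, made up 109, 79.1 and 98.6 and 785, 677 and 823 CPM. Fibroblast and stromal markers were at 3.63, 33.4 and 6.99 CPM untreated and 16, 121 and 21.1 CPM at 8 h, highest in libraries 14 and 20. Of the mast cell and basophil markers Cma1, Fcer1a, Mcpt4 and Tpsb2 had no read in the 6 libraries. The part of these markers in the results was not tested.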

How the data were processed

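RNA-seq counts of 23 mouse macrophage libraries were used, with total RNA read as 100 bp pairs per the labels' protocols. The submitters' processing notes name HISAT2 (version not given in the sources used here), featureCounts 2.0.1, DESeq2 and Ensembl release 101 of GRCm38, and the authors deposited raw counts per gene. Per the file headers, read pairs were counted without strand, for every gene they overlapped, and multi-mapping reads were not counted, which lowers genes with near-identical copies. Here 1 edgeR 4.0.16 model (R 4.3.3, TMM scaling, filterByExpr, quasi-likelihood test) was fitted to the 8 groups, with Benjamini-Hochberg adjustment over 18083 genes. Standard errors were derived from each estimate and its F statistic. On simulated counts for the comparison of 8 h with untreated cells (17880 genes), 70 of 100 genes changed 2-fold and 94 of 100 changed 4-fold were called. For the genotype difference (17902 genes) these were 44 and 82 of 100. The changed genes had a mean of at least 1 CPM, and counts were drawn independently for each gene and library. No other gene was changed, and 4 and 7 of these others were called in the 2 comparisons. In the data, by contrast, 60.2% of genes were called between 8 h and untreated cells. Neither a library set shared across genes nor libraries of doubted genotype were simulated, so the rates hold for that setting only.

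Genes, lists and rules were chosen with earlier results of these data known. Named genes were Selenow, the 12 largest rises and falls with at least 5 CPM and no overlap, up to 6 leading members of each list with every member against its list's direction or uncalled where 5 or fewer, and 8 each way for the other contrasts, of which part is printed and some are not reported here. Adgre1, Asb4, Ass1, Bst2, C3, Csf1r, Cxcl1, Cxcl10, Gpx3, Gpx4, Ifnb1, Ighm, Retnlg and Tnf were added after their values were seen. Alternatives covered scaling, filter, threshold, tool (DESeq2 1.42.0, limma 3.58.1), single libraries, doubted libraries and library set.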

Additional observations from a re-analysis of the deposited data

Results flagged for a closer look

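The response to 8 h of LPS differed between labelled knock-out and wild-type macrophages in a test of the difference itself for 8 genes (edgeR's quasi-likelihood interaction, Benjamini-Hochberg adjusted p between 0.0128 and 0.0439). On the log2 scale the difference was 1.05 for Fes, -2.55 for Abca5, -2.15 for Nlrc4, -1.52 for Dusp10, -1.23 for Tob1, -1.18 for Nabp1, -0.68 for Ppp1r10 and -6.66 for Asb4. Only Asb4, which was below 1 CPM in every library compared, was called against a fold of 1.5. Libraries 13 and 19 of the labelled knock-out group held Selenow near the wild-type level, and without libraries 13, 16, 19 and 22 none of the 8 was called, with differences of like size there (1.06, -2.8, -2.15, -1.56, -1, -1.09, -0.66 and -6.27 in the same order). None of the 8 was called either with only the groups compared, at an adjusted p under 0.01, or without library 1, 2, 7 or 20. With a term for the library set all 8 were among 42 called genes, and without the second library set all 8 were among 1667. That set was found in these same data by its deviation from the group means, so these counts are no independent support for the 8.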

How the results depend on the processing

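Of 6047 values of single genes under an alternative, 5892 counted as the same, 131 no longer passed and 24 newly passed. Of the values called in the main fit, 0 reversed, but they cover only genes named in the text, many of them with large changes. Over all genes, 812 called between 8 h and untreated cells took the opposite sign by library totals. A value counted as the same if it kept direction and side of the threshold. It also did so if its sign changed in a gene not called in the main fit. Of 1672 list counts 1559 stayed within 1.5 times. Leaving out 1 library gave 9896 to 10163 genes between 8 h and untreated cells (4681 to 4880 higher, 5122 to 5339 lower), 7204 to 8134 between 8 h and 4 h (3777 to 4215 higher, 3427 to 3919 lower) and 0 to 8 for the genotype difference (0 to 3 higher, 0 to 7 lower). Scaling by library totals gave 2994 higher and 9751 lower, and 3 higher for the genotype difference. RLE scaling put 50.3% of calls higher and upper-quartile scaling 42.7%, against 47%. A fold over 1.5 left 6444 genes (3150 higher, 3294 lower) against untreated cells, 3710 (1980 and 1730) against 4 h and 1 (0 and 1) for the genotype difference. That last count was 0 in each direction at an adjusted p under 0.01, with only the groups compared, and without libraries 13, 16, 19 and 22, where 2719 genes stood below their 4 h level at 8 h. It was 42 (17 higher, 25 lower) with a library set term, 1667 (701 and 966) without the second library set and 196 (81 and 115) with DESeq2. It had 4 higher with no filter on low counts and 2 higher with limma-voom. The cause was not tested. No paired analysis was run, because the running numbers of the libraries are not shared between groups and the labels state no pairs. The main model has no term for the library set, which was found in the data. With that term 11546 genes were called between 8 h and untreated cells, against 10886 in the main model.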
